A study of Mus musculus with 6 samples.

Results

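The 9 genes described here, *Dclk1*, *Pou2f3*, *Trpm5*, *Alox5ap*, *Ptgs1*, *Avil*, *Gfi1b*, *Sh2d6* and *Il25*, mark tuft cells of the small intestine. They were chosen by symbol from a table of RNA-seq counts in duodenal villus epithelium, where each matched 1 of 20073 Ensembl genes. Villus epithelium of 3 double mutant (DM) mice was compared with that of 3 wild-type (WT) mice, 1 library a mouse, after enrichment of polyadenylated RNA. The double mutant mice carried Villin-CreERT2, a Cre recombinase that tamoxifen activates and that the Villin promoter places in all intestinal epithelial cells, with both *Smad4* alleles floxed and exon 3 of *Ctnnb1* floxed on 1 allele. Loss of that exon stabilises β-catenin. They received 4 daily injections of tamoxifen at 0.05 g/kg, and villi were collected at 7 days. The wild-type mice were uninjected littermates on the same background, enriched for C57BL6, so exposure to tamoxifen differed between the groups together with the genotype, and the contributions of each cannot be told apart. Replicate 1 of each group was male and replicates 2 and 3 were female. The ages of the mice are not given in the sources used here.

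Tuft cells are rare chemosensory cells of the intestinal epithelium with a stiff apical bundle of microvilli. They sense luminal metabolites through a cascade shared with taste cells, in which a rise in calcium opens the cation channel TRPM5. They answer parasites with the cytokine IL-25, which acts on group 2 innate lymphoid cells, and they also make prostaglandins, leukotrienes and acetylcholine. POU2F3 is the transcription factor on which the lineage depends.

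Where transcription of these genes starts can be read from the reference. RefSeq promoter windows (GRCm38.p6) were at hand for 6 of the 9 genes, with 7 windows because *Dclk1* has 2 starts, and none for *Pou2f3*, *Alox5ap* and *Il25*. The windows below hold the 250 bases before the start and belong to *Dclk1*, the most used tuft cell marker, and to *Ptgs1* and *Sh2d6*. In the fit of all mice, *Ptgs1* and *Sh2d6* had the lowest log2 fold changes of the 8 genes with enough counts to be tested. Capitals mark the one match found.
*Dclk1*, upstream start, chr3:55242114-55242363, plus strand: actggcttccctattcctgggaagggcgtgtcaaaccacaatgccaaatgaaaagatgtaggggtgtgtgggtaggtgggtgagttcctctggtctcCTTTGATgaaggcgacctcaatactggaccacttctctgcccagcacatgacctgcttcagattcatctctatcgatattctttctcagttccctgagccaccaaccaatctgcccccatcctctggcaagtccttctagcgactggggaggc
*Dclk1*, downstream start, chr3:55461478-55461727, plus strand: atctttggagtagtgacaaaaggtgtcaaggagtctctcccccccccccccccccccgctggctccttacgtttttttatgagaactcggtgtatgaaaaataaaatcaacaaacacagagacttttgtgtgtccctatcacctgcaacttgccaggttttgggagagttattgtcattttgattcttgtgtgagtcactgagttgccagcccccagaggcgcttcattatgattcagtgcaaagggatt
*Ptgs1*, chr2:36230176-36230425, plus strand: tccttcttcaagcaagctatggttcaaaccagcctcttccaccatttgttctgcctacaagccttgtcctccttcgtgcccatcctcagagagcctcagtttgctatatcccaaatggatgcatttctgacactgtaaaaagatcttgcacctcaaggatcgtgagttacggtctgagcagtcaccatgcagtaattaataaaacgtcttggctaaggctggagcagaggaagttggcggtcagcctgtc
*Sh2d6*, chr6:72520037-72520286, minus strand: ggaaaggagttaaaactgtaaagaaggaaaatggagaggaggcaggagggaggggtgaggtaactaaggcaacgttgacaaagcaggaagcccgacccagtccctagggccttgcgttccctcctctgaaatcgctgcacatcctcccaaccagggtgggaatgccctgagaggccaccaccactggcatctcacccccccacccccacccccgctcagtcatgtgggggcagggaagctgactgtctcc
Both strands of all 7 windows were searched for 3 motifs. The octamer ATGCAAAT, the classical POU factor motif, was in 0 of the 7 windows and in 1.60% of 32851 promoter windows of the reference. The TCF/LEF motif ATCAAAG was in 1 of 7, against 3.21% of all windows, as the reverse complement CTTTGAT that lies 153 to 147 bases before the upstream start of *Dclk1*. CAGACA, a SMAD-binding motif, was in 0 of 7 and in 17.1% of all windows. These matches describe letters in short windows and show no binding.

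Counts per mouse totalled 19678507 to 26337318, so that 3 counts equalled 0.114 to 0.152 CPM, the count relative to the library total. Levels below are CPM on library sizes scaled by TMM, a factor that offsets differences in composition. *Smad4* was at 119.6, 179.9 and 144.3 CPM in WT 1, 2 and 3 and at 26.0, 36.8 and 32.1 in DM 1, 2 and 3, a fall of 2.22 on the log2 scale, as the labels state. Total *Ctnnb1* was not past the threshold (log2 fold change -0.15) and cannot show the loss of 1 exon. Enterocyte markers summed to 44566 to 81132 CPM in all mice, as the villus label says. One library stood apart: in WT 1 the goblet markers summed to 126 CPM against 11032 and 11608 in the other wild-type mice, and the Paneth markers to 7.95 against 955 and 1592, so the results are also given without it.

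All 9 tuft cell genes had lower mean levels in double mutant than in wild-type villi. The 8 with enough counts to be tested each fell, to between 4.55% and 17.1% of the wild-type mean, and *Il25* had no count in any double mutant mouse. Of the 13346 genes tested by edgeR's quasi-likelihood test, 17.0% were called lower in double mutant villi at an adjusted p under 0.05, and 2.26% were called lower with a log2 fold change of -2 or less, which held for all 8. *Gfi1b*, *Ptgs1* and *Alox5ap* had enough counts through the wild-type group alone, so a call of higher was hardly open to them. With library size alone in place of TMM, 1425 genes were called lower and 3730 higher, where TMM gave 2274 and 2632, and the 8 tuft cell genes were called lower in both. For 8 of the 9 genes the highest double mutant mouse was below the lowest wild-type mouse, as for 24.2% of all tested genes. The median log2 fold change of the 8 was -3.56, against 0.02 over all tested genes, and they held places between 58 and 234 from the lowest log2 fold change. In bulk RNA, fewer tuft cells and less RNA per tuft cell cannot be told apart.

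**Figure D1:**
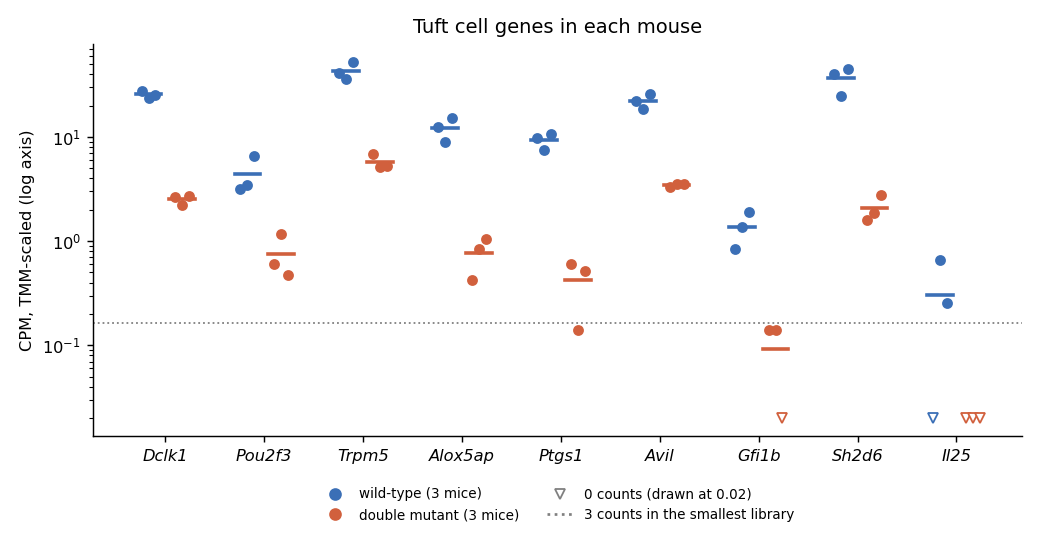
Level of each tuft cell gene in each mouse, in TMM-scaled CPM on a log axis, with wild-type mice in blue, double mutant mice in orange, lines for the means of 3 mice, and open triangles for 0 counts. The groups are apart for every gene except *Il25*, whose WT 1 value is 0 as in the 3 double mutant mice.

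*Pou2f3* (ENSMUSG00000032015, mm9 chr9:42932022-43018452, minus strand) encodes the POU-domain factor that specifies tuft cells. Its level was 3.16, 3.42 and 6.56 CPM in WT 1, 2 and 3 and 0.610, 1.16 and 0.474 CPM in DM 1, 2 and 3. The groups did not overlap, although WT 3 stood at 2.08 times the level of WT 1 and DM 2 was the highest double mutant mouse. The means were 4.38 ± 1.89 and 0.747 ± 0.362 CPM (SD, n = 3 each), and *Pou2f3* fell by 2.54 on the log2 scale (SE 0.456, edgeR adjusted p = 0.00345). This was the smallest fall of the 8 tested genes in the fit of all mice, and leaving out 1 mouse at a time moved the log2 fold change between -3.00 and -2.13. *Avil* fell least without WT 1 (-2.69, against -2.73 for *Pou2f3*) and without DM 2 (-2.71, against -3.00).

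*Gfi1b* (ENSMUSG00000026815, chr2:28464970-28477502, minus strand) encodes a zinc-finger repressor that marks tuft cells in the intestine and also works in megakaryocytes and red cell precursors. It had 20, 25 and 38 counts in WT 1, 2 and 3, or 0.832, 1.36 and 1.92 CPM, and 3, 3 and 0 counts in DM 1, 2 and 3. The double mutant mice thus sat at or under the limit of 3 counts, well below the lowest wild-type mouse. Over all mice, 6 counts against 83 gave a double mutant level of 7.03% of wild-type, with an exact 95% interval of 2.51% to 16.0% that covers counting error only. The fitted log2 fold change was -3.78 (SE 0.737, edgeR adjusted p = 0.00490), with the largest SE of the 8.

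*Trpm5* (ENSMUSG00000009246, chr7:150255058-150280547, minus strand) encodes the cation channel at the end of the taste cascade. It stood at 41.1, 36.2 and 52.5 CPM in WT 1, 2 and 3 and at 6.85, 5.10 and 5.22 CPM in DM 1, 2 and 3. The highest double mutant value was 18.9% of the lowest wild-type value. *Trpm5* fell by 2.92 on the log2 scale (SE 0.194, edgeR adjusted p = 5.49e-05), from 43.3 ± 8.38 to 5.72 ± 0.978 CPM (SD, n = 3 each).

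*Alox5ap* and *Ptgs1* act in the synthesis of lipid mediators. *Alox5ap* (ENSMUSG00000060063, chr5:150076634-150099621, plus strand) encodes FLAP, the membrane protein that hands arachidonic acid to 5-lipoxygenase for leukotriene synthesis. It was at 12.4, 9.02 and 15.2 CPM in WT 1, 2 and 3 and at 0.422, 0.834 and 1.04 CPM in DM 1, 2 and 3, so that even the highest double mutant mouse had 11.6% of the lowest wild-type level. *Alox5ap* fell by 3.99 on the log2 scale (SE 0.353, edgeR adjusted p = 0.000175), from 12.2 ± 3.09 to 0.766 ± 0.316 CPM.

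*Ptgs1* (ENSMUSG00000047250, chr2:36085946-36107792, plus strand) encodes the constitutive cyclooxygenase COX-1, which makes the precursor of the prostaglandins. Its levels were 9.74, 7.45 and 10.7 CPM in WT 1, 2 and 3 and 0.610, 0.139 and 0.522 CPM in DM 1, 2 and 3. The groups lay far apart, and DM 2, with 3 counts, was the lowest mouse. With a log2 fold change of -4.44 (SE 0.427, edgeR adjusted p = 0.000253), *Ptgs1* had the lowest value of the 8 and place 58 among all tested genes, and its double mutant mean was 4.55% of wild-type. Without DM 2, *Ptgs1* was at -4.03 and no longer the lowest, with *Gfi1b* at -4.17 and *Sh2d6* and *Alox5ap* at -4.05 each.

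*Dclk1* (ENSMUSG00000027797, chr3:55046448-55342986, plus strand), a microtubule-associated kinase, stood at 27.5, 23.8 and 25.4 CPM in WT 1, 2 and 3 and at 2.67, 2.22 and 2.70 CPM in DM 1, 2 and 3. The 3 mice of each group were nearly level, with a coefficient of variation of 7.18% in the wild-type and 10.6% in the double mutant group. *Dclk1* fell by 3.33 on the log2 scale (SE 0.165, edgeR adjusted p = 1.42e-05), which was the smallest SE and the smallest adjusted p of the 8.

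*Avil* (ENSMUSG00000025432, chr10:126437765-126458050, plus strand) encodes advillin, an actin-bundling relative of villin found in the tuft cell brush. It was at 22.0, 18.4 and 26.1 CPM in WT 1, 2 and 3 and at 3.28, 3.52 and 3.51 CPM in DM 1, 2 and 3. The double mutant mice were closer together for *Avil* than for any other of the 8 tested genes, with a coefficient of variation of 3.91%. *Avil* fell by 2.69 on the log2 scale (SE 0.182, edgeR adjusted p = 5.86e-05), to 15.5% of the wild-type mean.

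*Sh2d6* (ENSMUSG00000052631, chr6:72463638-72471628, minus strand) encodes an SH2-domain adaptor protein. It was at 40.5, 24.7 and 44.4 CPM in WT 1, 2 and 3 and at 1.59, 1.85 and 2.80 CPM in DM 1, 2 and 3. WT 2 was the lowest wild-type mouse and still stood far above every double mutant mouse. *Sh2d6* fell by 4.13 on the log2 scale (SE 0.301, edgeR adjusted p = 9.55e-05), from 36.5 ± 10.5 to 2.08 ± 0.633 CPM.

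*Il25* (ENSMUSG00000040770, chr14:55551608-55554671, plus strand), the cytokine through which tuft cells reach innate lymphoid cells, was near the limit of detection. It had 0, 12 and 5 counts in WT 1, 2 and 3 and 0 counts in each double mutant mouse, so the groups overlap at 0. Against a floor of 3 counts in each double mutant library, its mean was at least 2.12-fold lower. This limit rests on WT 2, which held 12 of the 17 counts, since without WT 2 the wild-type mean (0.126 CPM) was under the floor (0.142 CPM) and no fold can be given. *Il25* did not pass the filter on low counts, and in a fit without that filter its adjusted p was 0.0629 by edgeR and, in DESeq2's Wald test, 0.0556. *Il25* is therefore not called lower here.

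The exons of *Trpm5* and *Avil* lie partly over exons of genes on the opposite strand, and the sources used here do not state whether strand was used in counting. *Trpm5* shares 220 of its 6398 exonic bases with *Tssc4*, which stood at 10.2 to 11.5 CPM in wild-type and 7.46 to 12.9 CPM in double mutant mice (log2 fold change -0.09, edgeR adjusted p = 0.782). *Avil* shares 165 of 3398 exonic bases with *Tsfm*, which rose by 1.22 on the log2 scale (edgeR adjusted p = 0.00239), from 6.06 to 8.32 CPM in wild-type to 13.6 to 19.5 CPM in double mutant mice. Reads of the shared stretches cannot be assigned to a strand here, and how many of the *Trpm5* and *Avil* counts come from their neighbours was not tested.

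Per kilobase of merged exons, *Sh2d6* had the highest wild-type level (21.0 CPM per kb), followed by *Alox5ap* (13.8), *Trpm5* (6.76), *Avil* (6.52), *Ptgs1* (2.39), *Dclk1* (1.89), *Pou2f3* (1.62), *Gfi1b* (0.749) and *Il25* (0.306). Among neighbours in this order, only *Alox5ap* and *Trpm5*, *Avil* and *Ptgs1*, and *Pou2f3* and *Gfi1b* did not overlap between their 3 wild-type mice. In double mutant villi the order was *Sh2d6* (1.20 CPM per kb), *Avil* (1.01), *Trpm5* (0.894), *Alox5ap* (0.868), *Pou2f3* (0.276), *Dclk1* (0.187), *Ptgs1* (0.109) and *Gfi1b* (0.051), with *Il25* at 0. There the first 4 genes overlapped each with the next, while *Alox5ap* and *Pou2f3*, and *Dclk1* and *Ptgs1*, did not. *Ptgs1*, above *Dclk1* and *Pou2f3* by its wild-type mean per kb, stood below both in double mutant villi. *Dclk1* has the longest merged exons (13514 bases), which count all annotated isoforms and lower its level per kb.

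As a share of the library total, without TMM scaling, the 9 genes together held 143, 117 and 176 CPM in WT 1, 2 and 3 and 17.5, 15.8 and 17.3 CPM in DM 1, 2 and 3. In this sum the wild-type mice spread widely (145 ± 29.6, SD, n = 3) and the double mutant mice barely (16.9 ± 0.921). Gene by gene, the coefficient of variation was larger in double mutant than in wild-type mice for *Dclk1*, *Pou2f3*, *Alox5ap*, *Ptgs1*, *Gfi1b* and *Sh2d6*. For *Ptgs1* it was 59.1% against 18.0%. For *Trpm5* (17.1% against 19.4%) and *Avil* (3.91% against 17.2%) it was smaller. Among the wild-type mice, WT 3 was the highest for 7 of the 9 genes and WT 2 the lowest for 6.

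The make-up of these counts differed between the groups. *Trpm5* made up 26.1% to 29.0% of the 9 genes' counts in wild-type and 32.1% to 42.3% in double mutant mice, and *Avil* 14.0% to 14.7% and 20.3% to 23.5%. *Sh2d6* took 19.7% to 25.8% in wild-type and 9.86% to 17.2% in double mutant mice, *Alox5ap* 7.22% to 8.30% and 2.61% to 6.41%, and *Ptgs1* 5.85% to 6.19% and 0.929% to 3.77%. For these 5 genes the groups did not overlap, whereas *Dclk1* (13.9% to 19.0% and 14.9% to 16.6%), *Pou2f3*, *Gfi1b* and *Il25* overlapped. *Trpm5* and *Avil* are the 2 genes with exons shared with another gene, and whether this bears on their shares was not tested. The mean share of *Pou2f3*, which shares no exons, was also higher in double mutant mice (4.81% against 2.78%), with overlapping groups. A share rises for any gene that fell less than the 9 together. With 3 mice a group an exact permutation test cannot give a p under 0.1, so these shares are given as a description.

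**Figure D2:**
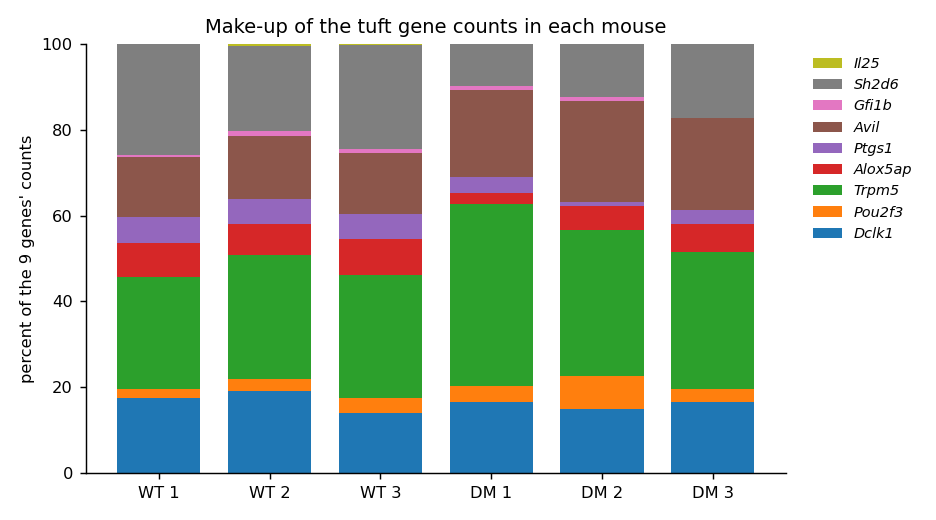
Stacked bars of the share that each gene takes of the 9 genes' raw counts, in percent, for each of the 6 mice. *Trpm5* (green) and *Avil* (brown) take wider bands in the double mutant mice, *Sh2d6* (grey), *Alox5ap* (red) and *Ptgs1* (purple) narrower ones, and *Dclk1* (blue) holds a like band throughout.

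Genes tied to tuft cell functions were set beside these 9 in 6 lists by role, which hold 93 further genes, of which 71 were tested. Some, such as the goblet cell product *Clca1*, are not genes of tuft cells, so the counts below are not shares of tuft cell genes alone. Of the 71, 37 were called lower in double mutant villi (52.1%, against 17.0% of all genes) and 7 were called higher (against 19.7% of all genes). Some of the genes called lower, such as *Hmx2*, *Hmx3*, *Sucnr1*, *Ffar3* and *Chat*, also had enough counts through the wild-type group alone. Their median log2 fold change was -0.73, and 21 had a log2 fold change of -2 or less and passed the test. Many of the genes in these lists are also used by enterocytes or white blood cells.

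Of 10 tested transcription factors of tuft or secretory cells, 3 fell, 1 rose and 6 did not pass, with a median log2 fold change of -0.02. *Spib*, an ETS factor of tuft and M cells, was at 14.8 to 20.7 CPM in wild-type and 1.55 to 2.13 CPM in double mutant mice (log2 fold change -3.22, SE 0.218, edgeR adjusted p = 5.86e-05). The homeobox genes *Hmx2* and *Hmx3* fell by 3.93 (SE 0.716) and 3.71 (SE 0.815) on the log2 scale from wild-type means of 1.27 and 1.92 CPM. In DM 1, 2 and 3, *Hmx2* had 0, 2 and 3 counts and *Hmx3* had 8, 0 and 1, mostly at or under the limit of 3 counts, so these folds are imprecise. *Sox9*, which is also a factor of crypt cells, rose by 1.95, from 6.16 to 11.8 CPM in wild-type to 25.0 to 39.0 CPM in double mutant mice. *Atoh1*, the secretory lineage factor, was at 0.125 CPM in WT 1 against 16.4 and 12.4 in WT 2 and 3 and 6.50 to 7.08 in double mutant mice, and did not pass the test. The low WT 1 value goes with the low goblet and Paneth sums of that mouse, which was the lowest wild-type mouse for *Pou2f3*, *Gfi1b* and *Il25* and not for the other 6 tuft cell genes.

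In the taste cascade, 6 of 8 tested genes fell, 0 rose and the median was -1.13. *Plcb2*, the phospholipase upstream of TRPM5, fell by 2.58 on the log2 scale, from 4.13 to 5.37 CPM in wild-type to 0.703 to 0.973 CPM in double mutant mice (edgeR adjusted p = 0.00051). *Sucnr1*, the succinate receptor, had 47, 27 and 28 counts in WT 1, 2 and 3 and 0, 2 and 0 in DM 1, 2 and 3 (edgeR adjusted p = 0.00124). *Ffar3*, a receptor for short-chain fatty acids, had 104, 45 and 105 counts in WT 1, 2 and 3 and 4, 1 and 2 in DM 1, 2 and 3 (edgeR adjusted p = 0.000355). The widely expressed *Itpr2*, *Gnb1* and *Itpr3* changed less, with log2 fold changes of -1.16, -0.67 and -0.54.

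In eicosanoid synthesis, 3 of 10 tested genes fell, 2 rose and the median was -0.25. *Alox5*, the 5-lipoxygenase that FLAP serves, was at 12.5, 10.7 and 15.1 CPM in WT 1, 2 and 3 and at 1.22, 0.649 and 0.616 CPM in DM 1, 2 and 3. Its log2 fold change of -3.94 (SE 0.309, edgeR adjusted p = 0.000114) lies beside the -3.99 of *Alox5ap*. *Ltc4s*, the next enzyme towards the cysteinyl leukotrienes, had a log2 fold change of -0.38 and overlapping groups (4.18 to 7.87 and 3.94 to 5.28 CPM). *Hpgds*, the prostaglandin D synthase of haematopoietic cells and tuft cells, fell by 1.62 (edgeR adjusted p = 0.0334), and *Hpgd*, which degrades prostaglandins, by 1.66. *Ptges3* and *Pla2g4b* rose by 0.82 and 0.96.

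Among genes of the tuft cell cytoskeleton and surface, 6 of 13 tested fell, 0 rose and the median was -0.75. *Strip2*, listed in the annotation as *Fam40b*, fell by 3.42 and the adaptor gene *Fyb* by 2.61 on the log2 scale, to 9.33% and 16.4% of their wild-type means. *Espn*, an actin bundler of all microvilli, fell by 1.48, and *Vil1*, villin itself, by 0.85. The keratin *Krt18*, often used as a tuft cell stain, had a log2 fold change of 0.04 and overlapping groups.

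Signalling genes that tuft cells share with blood cells had the lowest median of the 6 lists, -2.44, with 15 of 19 tested genes called lower and 2 called higher. *Siglecf*, listed as *Siglec5* in the annotation, a sialic acid receptor on tuft cells and eosinophils, was at 21.8, 15.4 and 23.6 CPM in WT 1, 2 and 3 and at 0.657, 0.834 and 0.901 CPM in DM 1, 2 and 3. *Siglecf* fell by 4.66 on the log2 scale (SE 0.252, edgeR adjusted p = 2.00e-05), and *Cd300lf*, the receptor that murine norovirus uses to enter tuft cells, by 4.19. *Plcg2* and *Ptpn18* rose by 0.45 and 0.79.

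In the type 2 immune circuit, 4 of 11 tested genes fell, 2 rose and the median was -0.16. *Chat*, the enzyme that makes acetylcholine, had 51, 17 and 39 counts in WT 1, 2 and 3 and 2, 0 and 1 in DM 1, 2 and 3 (edgeR adjusted p = 0.00146). *Il17rb*, a receptor chain for IL-25, fell by 1.52 on the log2 scale, from 7.23 to 8.49 CPM in wild-type to 1.71 to 3.61 CPM in double mutant mice. *Clca1*, a goblet cell product induced by IL-13, rose by 1.50. *Il13ra1*, *Jak1* and *Il33* did not pass the test, with log2 fold changes of -0.01, -0.07 and -0.16.

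**Figure D3:**
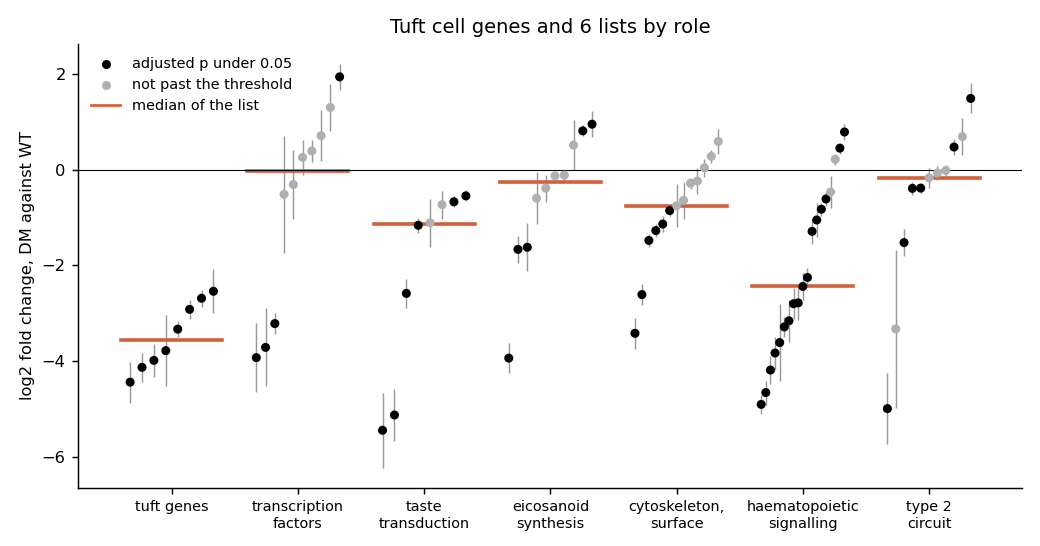
Log2 fold change of double mutant against wild-type villi, with bars for its standard error, for the 8 tested tuft cell genes and the 71 tested genes of 6 lists by role. Black points had an edgeR adjusted p under 0.05, grey points did not, and the orange line is the median of each list, which is lowest for the tuft cell genes (-3.56) and next for the signalling genes (-2.44).

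The genes whose level over the 6 mice was most like the median profile of the 8 tested genes were found by the root mean square difference of centred log2 CPM. The kinase gene *Matk* came first (0.132), with 17.0 to 24.5 CPM in wild-type and 2.02 to 2.09 CPM in double mutant mice, and *Spib* (0.234), *Pik3cg* (0.251) and *Enpp3* (0.254) were also among the first 5. A U6 small nuclear RNA gene (ENSMUSG00000088154, 0.149) with 13 to 21 counts a wild-type mouse and 0 in the other group was the other one, and reads of such a repeated gene are uncertain. About 2 counts were added before log2 CPM was taken, which limits how far a gene at 0 counts can fall. The fitted log2 fold change of this U6 gene was -7.17, against the median of -3.56 for the 8, so its nearness rests on that addition. Per kb of exons, *Matk*, *Spib* and the PI3-kinase gene *Pik3cg* had wild-type means of 4.36, 6.10 and 1.51 CPM, within the range of the 9 genes, whereas the ectoenzyme gene *Enpp3* stood at 543 CPM per kb. Of the 8 genes themselves, *Trpm5* (0.202) and *Dclk1* (0.205) lay nearest to their median profile and *Ptgs1* (0.931) farthest.

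Several of the 9 genes are also active in other cells that the preparation could hold, so lists of markers for those cells were read in the same mice. *Ptgs1* and *Gfi1b* are known from platelets and their precursors, whose 4 listed genes summed to 18.9 to 22.8 CPM in wild-type and 30.8 to 56.1 CPM in double mutant mice. Of the 2 that were tested, *Gp1bb* rose and *Itga2b* did not pass. *Alox5ap* is active in macrophages and granulocytes, whose list without *Siglecf* summed to 4.49 to 5.50 CPM in wild-type and 6.24 to 8.39 CPM in double mutant mice over 7 genes. With *Siglecf* the sums were 20.3 to 29.1 and 6.89 to 9.29 CPM, and of the 3 tested genes *Siglecf* alone was called lower. Most of the sum without *Siglecf* came from *Itgam* (3.29 to 3.89 CPM in wild-type and 4.60 to 6.64 CPM in double mutant mice) and *Cd68* (0.166 to 0.858 and 0.797 to 1.04 CPM), neither of which passed the test, and *Adgre1*, *Csf1r*, *C1qa*, *Cx3cr1* and *Lyz2* were at or below 0.469 CPM in every mouse.

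Mast cells express *Ptgs1*, *Alox5ap* and *Hpgds*. Their 8 listed genes summed to 10.2 to 12.6 CPM in wild-type and 3.34 to 6.05 CPM in double mutant mice, most of it from *Kit* and *Hdc*. Of 3 tested, only *Kit* was called lower, and the mast cell proteases *Mcpt4* and *Tpsb2* and the receptor chain *Ms4a2* had at most 3 counts in every mouse. T cell genes summed to 91.6 to 180 CPM in wild-type and 77.5 to 117 CPM in double mutant mice, with *Cd8a* and *Ptprc* called lower among 10 tested, a share near the 17.0% of all genes, and 8 that did not pass. Without WT 1, 7 of the 10 were called lower, against 17.1% of all genes tested without that mouse. B cell and stroma lists were at or below 5.11 CPM in every mouse. Enteric neuron and glia genes summed to 4.95 to 8.91 CPM in wild-type and 16.8 to 18.6 CPM in double mutant mice, most of it from *Ret*, the 1 gene of that list that was tested, which rose by 1.39 on the log2 scale. The part of *Kit*, *Hdc* and T cell transcripts in the falls above was not tested.

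Markers of other epithelial cells were read in the same way. The enteroendocrine list summed to 261 to 388 CPM in wild-type and 109 to 120 CPM in double mutant mice, with 9 of 11 tested genes called lower (17.0% of all tested genes were) and a median log2 fold change of -1.64. Enterocyte markers had 9 of 15 called lower, 1 higher and a median of -0.55, with sums of 68371 to 81132 and 44566 to 47228 CPM. Stem cell markers had 6 of 11 called higher (19.7% of all tested genes were) and none lower, with sums of 89.6 to 202 and 344 to 429 CPM. Goblet cell genes summed to 126, 11608 and 11032 CPM in WT 1, 2 and 3 and to 4674 to 5068 CPM in double mutant mice, and 1 of 9 was called higher and none lower. Without WT 1, 5 of the 9 were called lower and 2 higher, where 17.1% of all genes were called lower and 20.2% higher. Paneth cell genes summed to 7.95, 955 and 1592 CPM in WT 1, 2 and 3 and to 390 to 975 CPM in double mutant mice, with none of 7 tested called, and without WT 1 with 3 of 8 called lower and 2 higher. The enteroendocrine and stem cell counts were 10 of 11 lower and 7 of 11 higher without WT 1. The medians of the tuft cell genes (-3.56) and of the enteroendocrine list (-1.64) are given side by side and their difference was not tested.

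**Figure D4:**
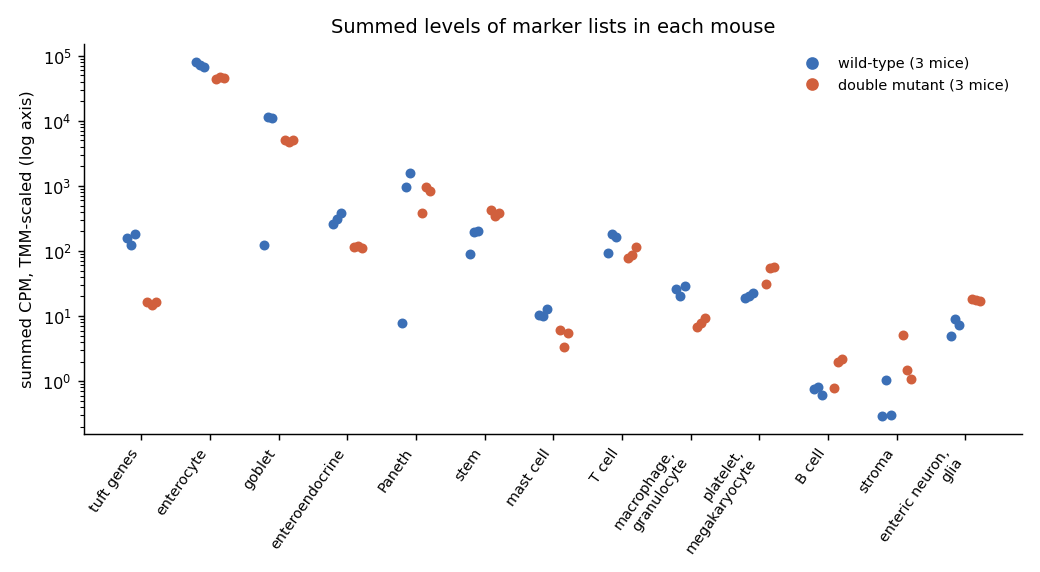
Summed TMM-scaled CPM of the 9 tuft cell genes and of 12 marker lists in each mouse, on a log axis, with wild-type mice in blue and double mutant mice in orange. The tuft cell sums are apart between the groups (125.0 to 183 and 15.0 to 16.3 CPM), and WT 1 lies far below the other wild-type mice for the goblet and Paneth lists.

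Without WT 1, all 8 genes were again called lower, with log2 fold changes between -4.41 (*Ptgs1*) and -2.69 (*Avil*).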

How the data were processed

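Per the labels, polyadenylated RNA of duodenal villi, freed from the mesenchyme with EDTA, was sequenced for 6 mice. The authors aligned 150 bp paired-end reads to mm9 with HISAT2, made the gene counts with featureCounts and deposited them raw, without normalization or pooling. Strand setting and treatment of reads matching several genes are not given in the sources used here. Symbols, coordinates and exon lengths came from the GENCODE annotation of mm9 (20032 of 20073 Ensembl identifiers matched). Of the 20409 rows, 336 are unnamed transcripts with 0.214% to 0.270% of the counts; they were tested with the rest. Promoters came from RefSeq (GRCm38.p6).

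Genes were kept by filterByExpr, scaled by TMM and tested in edgeR 4.0.16 (glmQLFit, robust, glmQLFTest; R 4.3.3), DM against WT, with Benjamini-Hochberg adjustment over 13346 genes and a threshold of 0.05. The study's methods name DESeq2, which was run here (1.42.0) as an alternative, as were limma-voom (3.58.1), other scalings and filters, a replicate block, sex and leaving out each mouse. Marker lists without WT 1 and the *Il25* limit without each wild-type mouse were added after seeing the data. SE is the log2 fold change over the square root of F. Floors and intervals cover counting error only. The main edgeR fit was tested on counts simulated with the same dispersion for all genes, and the alternative fits were not. Only genes with higher counts were changed in the simulation, so it does not cover genes as low as *Gfi1b*. Besides the 9, the named genes are the 3 largest calls in each direction with an absolute log2 fold change of at least 1 in each list and the 5 nearest profiles. *Atoh1*, *Itpr2*, *Gnb1*, *Itpr3*, *Ltc4s*, *Ptges3*, *Pla2g4b*, *Vil1*, *Krt18*, *Plcg2*, *Ptpn18*, *Il13ra1*, *Jak1*, *Il33* and the single markers were added after their values were seen. Some genes that fall under this rule are not reported here. The members and lists were chosen with earlier results of these data known. Whether the same replicate number marks a shared litter or day is not given.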

Additional observations from a re-analysis of the deposited data

How the results depend on the processing

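The 8 tested tuft cell genes were called lower in all 14 alternative fits, and their log2 fold changes stayed on the same side of the threshold in all 112 combinations of gene and fit. The largest adjusted p over these fits was 0.0201 for *Gfi1b* and 0.0186 for *Pou2f3*, the 2 genes with the fewest counts among the 8. Leaving out 1 mouse at a time moved *Gfi1b* between -4.17 and -3.23 and *Ptgs1* between -4.79 and -4.03 on the log2 scale. The log2 ratio of the 9 genes' share of counts was -3.10, and ran from -3.29 with TMM-scaled library sizes to -2.94 without WT replicate 3. Genes called over the whole table numbered 4906 (2274 lower, 2632 higher), and 3442 to 5144 with 1 mouse left out. With an absolute log2 fold change of at least 2 as well, 708 were called, since that threshold asks for more. With library size alone in place of TMM, the median log2 fold change of all genes was 0.22 and 1425 genes were called lower and 3730 higher, with 32 of the 71 genes of the 6 lists lower and 10 higher, and the highest log2 fold change of the 8 was -2.36 (*Pou2f3*). Genes of the 6 lists called lower numbered 37, and 32 to 43 with 1 mouse left out, 43 being without WT replicate 1. Under the replicate block, 8 tuft cell genes, 34 genes of the 6 lists and 3844 genes in all were called. Same-numbered mice did not deviate together (correlations across genes of 0.02, -0.11 and 0.01), and beyond sex no shared litter, batch or day is given for them. Counts of *Il25* and *Gfi1b* were at or under 3 in each double mutant mouse, which limits the precision of their folds.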
